A study of Homo sapiens with 18 samples.

Results

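Expression of genes that sense foreign or misplaced nucleic acid, and of factors that carry the interferon signal, was examined in 6 ovarian cancer cell lines. The genes were taken by name from the RNA-seq table: the RNA sensors IFIH1, DHX58 and TLR3, the adaptor MAVS, the kinases TBK1 and JAK1, and the transcription factors IRF3, IRF9 and STAT2. Of these 9 genes, 8 had a row among the 12853 genes of the table, and IRF9 was not analysed here. All 8 genes passed the filter that the table itself carries, and no further filter was applied to them.

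The lines form 3 pairs of a platinum-sensitive and a platinum-resistant line, grown without treatment in the same medium, with 3 replicate libraries for each line and 18 in all. A2780 is a sensitive line that the labels call endometrial/ovarian, and CP70 is its resistant derivative, selected in culture. PEA1 and PEA2 came from 1 patient with high-grade serous disease, before chemotherapy and after resistant relapse, and PEO1 and PEO4 came from another patient, both after chemotherapy but before and after clinical resistance arose. Each pair is thus 1 tumour or 1 parent line, and a difference within it describes those cell lines. Nothing states that the replicates were separate cultures, so the p-values measure only the spread between these libraries.

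Values are deposited log2 CPM, reads scaled to a normalized size of their library, with 0.5 reads added to each count. This size is not the plain read total: in PEA2 replicate 1 it was 1874739, below the 2130465 reads on the listed genes. Whole reads were recovered from 100% of values, and the libraries held from 1344098 to 7067336 reads on the listed genes, so that 3 reads corresponded to between 0.452 and 2.18 CPM. The libraries were checked against markers of the labelled tissue. The summed level of 12 epithelial and ovarian markers ranged from 2.52 to 3.13 CPM in A2780 and from 90.5 to 96.5 CPM in CP70, and 11 of the 12 in A2780 and 8 in CP70 had at most 3 reads in every library. It was 438 to 592 CPM in PEA1 and 4236 to 4509 CPM in PEA2. The cytokeratin gene KRT7 had 7 reads over the PEA1 libraries and 8085 over those of PEA2. Of the 12 markers, 10 were higher in PEA2 and 0 lower at an unadjusted p below 0.05 (limma). At an FDR below 0.05, 32.5% of all genes rose and 29.4% fell in that pair. PAX8 was level, at a mean of 330 CPM in PEA1 and 324 CPM in PEA2. PEO1 and PEO4 reached 7947 to 8974 and 6447 to 8174 CPM. The leukocyte gene PTPRC had 163 reads in PEA2 and 0 in PEA1, and the endothelial gene CDH5 had 233 in PEA2 and 0 in PEA1. Each was the only gene with a row among the 8 leukocyte and 4 endothelial markers looked for. Both had at most 2 reads in every library outside PEA2, so the filter of the table may have kept them through PEA2 alone. In the A2780 pair, KRT18 went from 9 reads over the A2780 libraries to 906 over those of CP70. Of the 12 epithelial and ovarian markers, 3 were higher and 1 lower in CP70 at an unadjusted p below 0.05 (limma). At an FDR below 0.05, 22.2% of all genes rose and 17.7% fell there, so these counts are not particular to the markers. The 1 lower was ESR1, with 1 read in A2780 and 0 in CP70, too few for a fold. In the PEO pair, 3 of the 12 were higher and 2 lower in PEO4 at the same unadjusted threshold. At an FDR below 0.05, 19.6% of all genes rose and 21.9% fell there. KRT7 went from a mean log2 value of 10.9 in PEO1 to 8.49 in PEO4, and WT1 from 6.49 to 7.93. The lines of each pair therefore differ in some markers of cell identity as well as in the genes described here. The part of that difference in the results of these pairs was not tested.

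IFIH1 (MDA5) is a cytosolic helicase that binds long double-stranded RNA, and DHX58 (LGP2) is a related helicase that modulates its activity. TLR3 recognises double-stranded RNA in endosomes. IFIH1 signals through MAVS on mitochondria to the kinase TBK1, which phosphorylates IRF3 so that it enters the nucleus and switches on interferon genes. Secreted type I interferon acts on its receptor, where JAK1 phosphorylates STAT proteins, and STAT2 acts with IRF9 in the complex that transcribes interferon-stimulated genes. IFIH1, DHX58, TLR3 and STAT2 are themselves induced by interferon in many cells.

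IFIH1 and DHX58 were higher in the resistant line of all 3 pairs, and none of the other 6 passed the test with 1 direction throughout. At an FDR below 0.05 (limma, Benjamini-Hochberg over 12853 genes), 4 of the 8 genes rose and 1 fell from A2780 to CP70, where 22.2% of all genes rose and 17.7% fell. From PEA1 to PEA2, 4 rose and 2 fell, against 32.5% and 29.4% of all genes. From PEO1 to PEO4, 4 rose and 1 fell, against 19.6% and 21.9%. With |log2FC| above 2 added to the FDR threshold, 2 of the 8 passed in each pair, where 9.06%, 14.1% and 6.22% of all genes did in the A2780, PEA and PEO pairs. An increase in all 3 pairs was found for 1.59% of all genes and a decrease in all 3 for 1.21%. Of the 24 comparisons of a gene within a pair, 16 passed the FDR threshold. In these bulk libraries, a lower level in every cell and fewer expressing cells cannot be told apart.

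**Figure D1:**
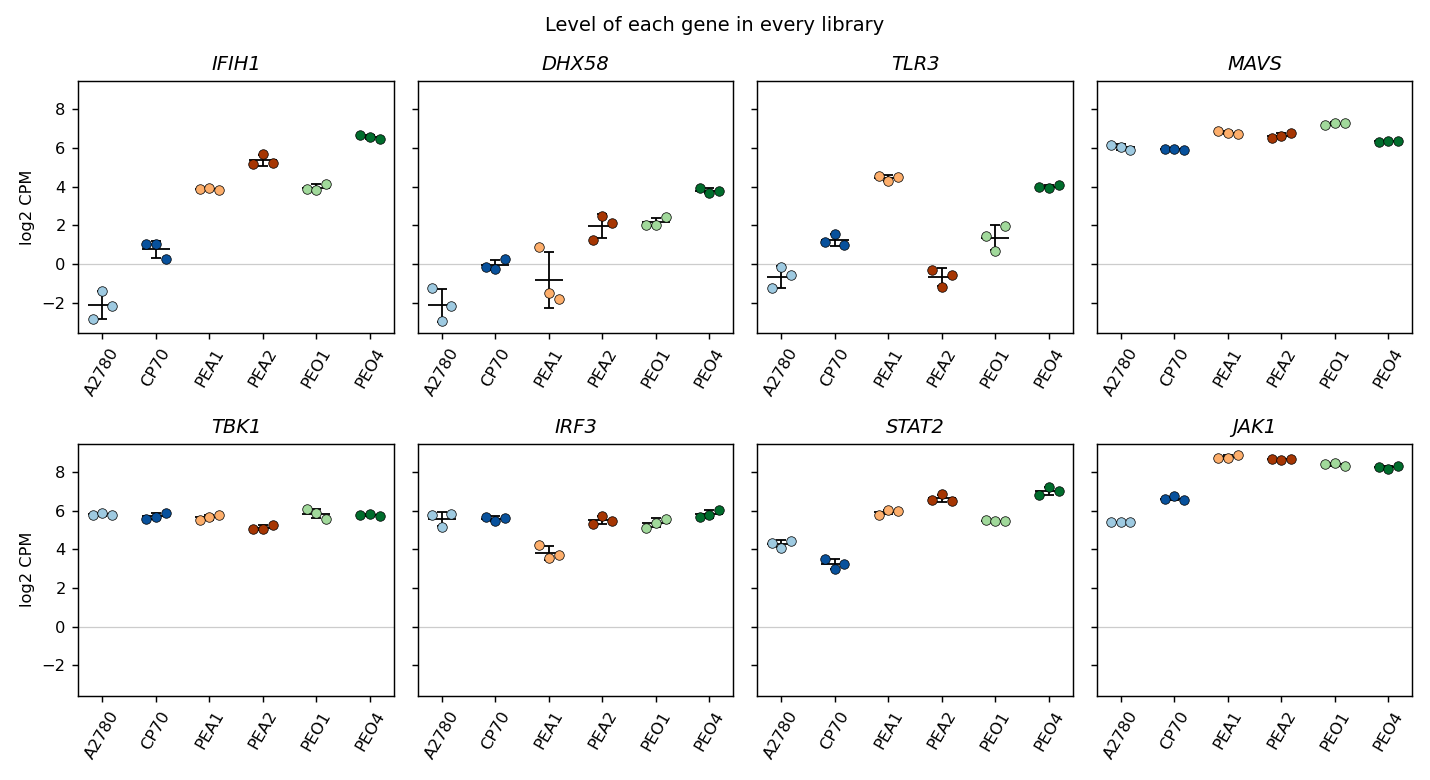
Level of each of the 8 genes in every library, as log2 CPM on the y axis, with the 6 lines on the x axis; points are libraries, and the bars give the mean and SD of the 3 replicates. IFIH1, DHX58 and TLR3 cover 8.69, 5.92 and 5.15 log2 units between line means, whereas TBK1 covers 0.73.

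IFIH1 (ENSG00000115267, chr2:163123584-163175194 on GRCh37, minus strand) had the widest range of the 8 genes. It was close to undetected in A2780, whose libraries gave log2 values of -2.84, -1.37 and -2.16 from 0, 1 and 0 reads. In CP70 the values were 1.03, 1.01 and 0.24, from 12, 8 and 4 reads. All CP70 libraries lay above all A2780 libraries, and the log2FC was 2.89 (SE, the standard error, 0.32, FDR = 3.15e-07, limma). Because A2780 held 1 read in all, the size of this change depends on the reads added to each count, and the log2FC was 1.49 with 2 reads added. The ratio of the summed reads was 16.5, with an exact binomial 95% interval of 2.68 to 677 that covers counting error only.

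In the serous lines IFIH1 was well above that level. PEA1 gave log2 values of 3.90, 3.94 and 3.82 and PEA2 5.15, 5.67 and 5.24, a log2FC of 1.47 (SE 0.32, FDR = 0.000509, limma) with no overlap between the lines. PEO1 gave 3.89, 3.82 and 4.15 and PEO4 6.66, 6.56 and 6.48, again without overlap, with a log2FC of 2.61 (SE 0.32, FDR = 1.57e-06, limma). The sensitive lines PEA1 and PEO1 were neighbours in the order of line means and were not separated (log2 difference 0.07, FDR = 0.859, limma), whereas PEO4, at 6.57 ± 0.09 (SD, n = 3), stood above PEA2 by 1.21 (FDR = 0.00233, limma).

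The promoter of IFIH1 is shown because it holds 3 matches to the core of the interferon-stimulated response element (ISRE). This is the element bound by the complex that holds STAT2 and IRF9, and by IRF proteins. The letters searched were GAAANNGAAA, on both strands, in windows from 250 bases before to 50 bases after the RefSeq gene start (RefSeq sequences of GRCh38.p14, each placed in GRCh37 by an exact match). A window was found for 6 of the 8 genes. The letters occur in 3.57% of all 35116 promoters and in 2.86% of those of genes in the table. The matches in IFIH1 begin 159, 153 and 21 bases before the gene start in the direction of transcription, and the first pair overlap each other. In the 30-base stretches, written 5′ to 3′ on the strand of the gene, capitals mark the match, which for the first pair lies on the opposite strand.
IFIH1 at chr2:163175334-163175363, minus strand: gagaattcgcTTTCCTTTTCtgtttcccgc
IFIH1 at chr2:163175328-163175357, minus strand: tcgctttcctTTTCTGTTTCccgcggtgtc
IFIH1 at chr2:163175196-163175225, minus strand: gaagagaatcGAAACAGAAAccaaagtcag

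DHX58 (ENSG00000108771, chr17:40253422-40264732, minus strand) was low in most lines but rose in each pair. A2780 had 1, 0 and 0 reads, at log2 values of -1.25, -2.95 and -2.16, and CP70 had 5, 3 and 4 reads, at -0.15, -0.27 and 0.24. The lines did not overlap, with a log2FC of 2.06 (SE 0.57, FDR = 0.00630, limma), and the ratio of the summed reads was 8.23 with an exact 95% interval from 1.22 to 352. With 2 reads rather than 0.5 as the addition, the log2FC was 0.82 and the FDR 0.0605 (limma), so this call depends on the addition.

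PEA1 had 2, 0 and 0 reads of DHX58 and PEA2 4, 19 and 9. Their log2 values were 0.86, -1.49 and -1.80 against 1.26, 2.49 and 2.12, and the first PEA1 library came close to the lowest of PEA2 without reaching it. The log2FC was 2.77 (SE 0.57, FDR = 0.000298, limma), and the ratio of the summed reads was 9.59, with an exact 95% interval of 2.45 to 82.6. With 2 reads in all in PEA1, this size too depended on the setting: it was 1.45 with 2 reads added and 3.60 without PEA1 replicate 1, and it passed the FDR threshold in both. The depth was better in the PEO pair, where PEO1 had log2 values of 2.03, 2.04 and 2.42 and PEO4 of 3.94, 3.68 and 3.76. The lines again stood apart, with a log2FC of 1.63 (SE 0.57, FDR = 0.0260, limma), which was 2.54 after quantile normalization. The fit gives 1 spread for the 6 lines, while the SD of DHX58 was 0.22 in PEO1 and 0.13 in PEO4. It was 0.85 in A2780 and 1.45 in PEA1. Over 13 alternatives the FDR in the PEO pair ran from 7.05e-05 to 0.0714 (limma). This call was lost in 5 of the 6 fits that left out 1 library of the pair, namely those without PEO1 replicate 1 (FDR = 0.0685, limma) or 2 (0.0679) and without PEO4 replicate 1 (0.0714), 2 (0.0521) or 3 (0.0570), while the log2FC stayed between 1.56 and 1.69 in these.

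TLR3 (ENSG00000164342, chr4:186990065-187009227, plus strand) moved in opposite directions in the pairs, falling in the PEA pair and rising in the others. PEA1 had the highest level of the 6 lines, at log2 values of 4.56, 4.29 and 4.51, and each PEA2 library held 1 read, at -0.32, -1.21 and -0.54. TLR3 fell by 5.15 on the log2 scale (SE 0.38, FDR = 6.02e-10, limma). Summed over libraries, PEA2 had 0.0184 times the reads of PEA1, with an exact 95% interval of 0.00372 to 0.0552.

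In the PEO pair TLR3 went the other way. PEO1 gave log2 values of 1.47, 0.69 and 1.94, the widest spread of the gene in any line, and PEO4 gave 3.98, 3.92 and 4.07. The lines did not overlap and the log2FC was 2.62 (SE 0.38, FDR = 1.40e-05, limma). In A2780 the libraries had 1, 3 and 1 reads and log2 values of -1.25, -0.15 and -0.58, and in CP70 13, 12 and 7 reads gave 1.15, 1.57 and 0.98. CP70 lay above A2780 in every library, with a log2FC of 1.89 (SE 0.38, FDR = 0.000476, limma) and a ratio of summed reads of 4.39 (exact 95% interval 1.70 to 14.4). After quantile normalization this log2FC was 0.78 and did not pass (FDR = 0.103, limma). PEA1 and PEO4 were not separated at the top of the order (log2 difference 0.46, FDR = 0.291, limma), nor were A2780 and PEA2 at the bottom.

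TLR3 is the other gene of the 6 with an ISRE core in its promoter, on the opposite strand from 4 bases before the RefSeq gene start. It is also the 1 gene of the 6 with the letters TTCNNNGAA of the gamma-activated site (GAS), an element of interferon gamma responses, which start 178 and 50 bases before the gene start. These letters read the same on both strands and occur in 7.66% of all promoters and 6.22% of those of genes in the table. No ISRE and GAS match overlaps another in TLR3. The annotated span of TLR3 given above begins upstream of the RefSeq start, so these matches lie inside that span. The stretches are shown on the plus strand, which is that of the gene, with the matches in capitals.
TLR3 ISRE core at chr4:186990296-186990325, plus strand: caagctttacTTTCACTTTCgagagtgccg
TLR3 GAS at chr4:186990122-186990151, plus strand: ctgtgaccctTTCAATGAAatccaaggatc
TLR3 GAS at chr4:186990250-186990279, plus strand: ccctttgcccTTCTTGGAAtgcaccaaaca
The windows of MAVS, TBK1, STAT2 and JAK1 held neither set of letters.

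**Figure D2:**
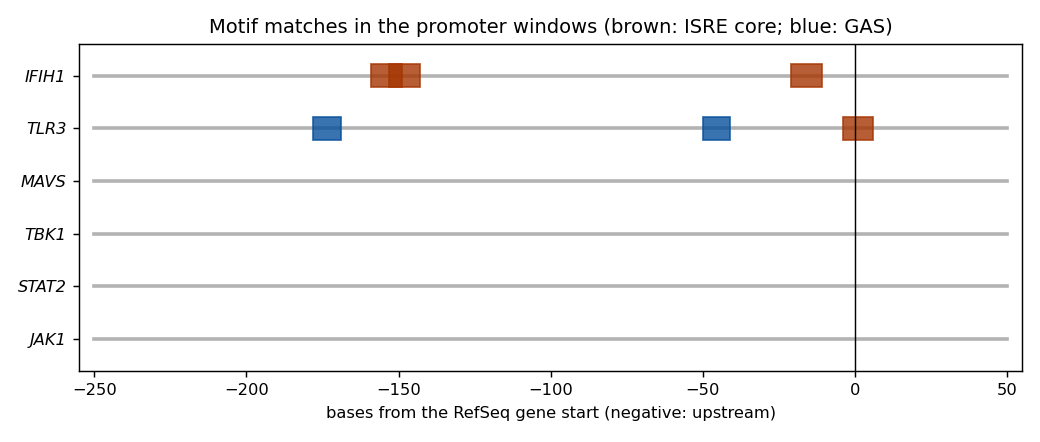
Positions of the ISRE core (brown) and GAS (blue) letters in the promoter windows of the 6 genes with a window; the x axis gives bases from the RefSeq gene start, with negative values upstream. IFIH1 has matches from 159, 153 and 21 bases upstream, and TLR3 has an ISRE core from 4 and GAS letters from 178 and 50 bases upstream.

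MAVS (ENSG00000088888, chr20:3827446-3856770, plus strand), the adaptor shared by the cytosolic RNA sensors, passed the test in the PEO pair alone of the 3. PEO1 had the highest values of the 6 lines, at 7.17, 7.31 and 7.29, and PEO4 had 6.30, 6.36 and 6.35, without overlap. MAVS fell by 0.92 on the log2 scale (SE 0.10, FDR = 2.03e-07, limma), the opposite direction to IFIH1, DHX58 and TLR3 in the same pair. In A2780 the values were 6.17, 6.05 and 5.88, which overlapped those of CP70 (5.97, 5.96 and 5.88). That log2FC was -0.10 (95% interval -0.30 to 0.10, FDR = 0.444, limma). The values of PEA1 (6.90, 6.79 and 6.70) also overlapped those of PEA2 (6.53, 6.61 and 6.76), with a log2FC of -0.16 (95% interval -0.36 to 0.04, FDR = 0.153, limma). After quantile normalization, which moved the median log2FC of all genes of the PEA pair from 0.01 to -0.10, the MAVS change was -0.28 and passed (FDR = 0.0150, limma).

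TBK1 (ENSG00000183735, chr12:64845870-64895894, plus strand), the kinase below MAVS, was the most even of the 8 genes. Its values were 5.76, 5.90 and 5.77 in A2780 and 5.57, 5.69 and 5.88 in CP70, which overlapped, with a log2FC of -0.10 (95% interval -0.37 to 0.17, FDR = 0.573, limma). In PEO1 they were 6.07, 5.87 and 5.59 and in PEO4 5.80, 5.84 and 5.72, which overlapped as well, with a log2FC of -0.06 (95% interval -0.33 to 0.21, FDR = 0.754, limma). PEA2 was the exception, with 5.04, 5.06 and 5.25 against 5.53, 5.65 and 5.76 in PEA1, no overlap, and a log2FC of -0.53 (SE 0.13, FDR = 0.00133, limma). In the order of the line means, 4 of the 5 steps of TBK1 did not separate neighbours, and the step down to PEA2 did. The annotation places 2 long noncoding genes over TBK1, neither of them in the table.

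IRF3 (ENSG00000126456, chr19:50162826-50169132, minus strand), the transcription factor that TBK1 activates, was low in PEA1 and close to even elsewhere. PEA1 gave 4.21, 3.56 and 3.69, from 25, 16 and 22 reads, and PEA2 gave 5.31, 5.75 and 5.48. The lines did not overlap, and the log2FC was 1.69 (SE 0.20, FDR = 3.13e-07, limma). In A2780 the values were 5.77, 5.15 and 5.81 and in CP70 5.68, 5.46 and 5.62, which overlapped, with a log2FC of 0.01 (95% interval -0.40 to 0.42, FDR = 0.977, limma). PEO1 had 5.12, 5.38 and 5.59 and PEO4 5.66, 5.76 and 6.03, so that no PEO1 library reached PEO4, yet the log2FC of 0.46 (95% interval 0.05 to 0.87) did not pass (FDR = 0.0680, limma). It passed with the PEO libraries fitted alone (FDR = 0.0137), after quantile normalization (0.0415), with voom weights (0.0448) and without PEO1 replicate 3 (0.0488). IRF3 overlaps BCL2L12 on the opposite strand by 734 bases, and since the strand setting of the counting is not given, reads from that overlap cannot be assigned with certainty.

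JAK1 (ENSG00000162434, chr1:65298906-65533437, minus strand), the kinase of the interferon receptors, passed the test in the A2780 pair and in neither of the others. A2780 had values of 5.40, 5.41 and 5.43 and CP70 of 6.60, 6.73 and 6.54, without overlap, with a log2FC of 1.21 (SE 0.08, FDR = 1.31e-10, limma). Both lay below the 4 serous lines, whose line means were between 8.24 and 8.76. In PEA1 the values were 8.69, 8.72 and 8.86, just above 8.68, 8.62 and 8.65 in PEA2, with a log2FC of -0.11 (95% interval -0.28 to 0.05, FDR = 0.225, limma). After quantile normalization, with its shift of all genes in that pair, the difference was -0.37 and passed (FDR = 0.000522, limma). PEO1 (8.42, 8.45 and 8.29) and PEO4 (8.27, 8.15 and 8.30) overlapped, with a log2FC of -0.15 (95% interval -0.31 to 0.02, FDR = 0.160, limma). JAK1 spans several annotated noncoding genes that are not in the table, and meets RAVER2 on the opposite strand over 10 bases.

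STAT2 (ENSG00000170581, chr12:56735381-56753987, minus strand), the subunit that gives the interferon complex its activation domain, fell in the A2780 pair and rose in the others. A2780 had values of 4.34, 4.08 and 4.44 and CP70 of 3.49, 2.99 and 3.22, without overlap, so that STAT2 fell by 1.05 on the log2 scale (SE 0.15, FDR = 7.93e-06, limma). This was the opposite of IFIH1, DHX58, TLR3 and JAK1 in the same pair. PEA1 had 5.80, 6.01 and 5.99 and PEA2 6.55, 6.84 and 6.52, with a log2FC of 0.70 (SE 0.15, FDR = 0.000397, limma). PEO1 had 5.50, 5.48 and 5.46 and PEO4 6.79, 7.21 and 6.99, with a log2FC of 1.52 (SE 0.15, FDR = 8.50e-08, limma). Neither of these pairs overlapped, and STAT2 was the 1 gene of the 8 whose neighbours in the order of line means were all separated. From the top, that order was PEO4, PEA2, PEA1, PEO1, A2780 and CP70.

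**Figure D3:**
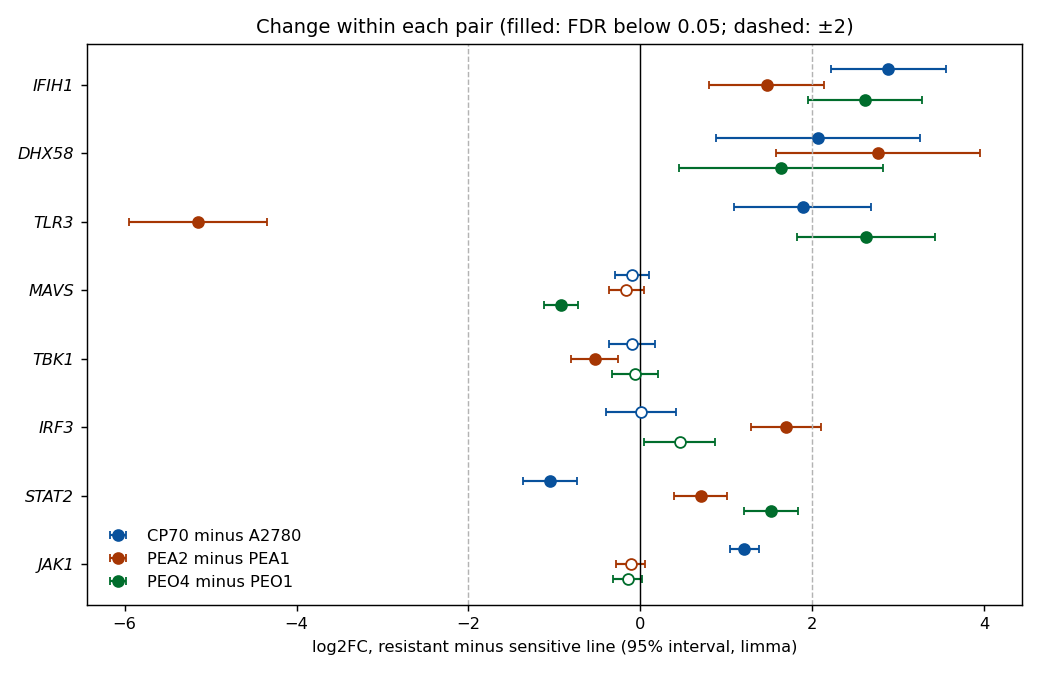
log2FC of each gene, resistant minus sensitive line, on the x axis for the A2780, PEA and PEO pairs; points are limma estimates, bars their 95% intervals, and filled points have an FDR below 0.05. IFIH1 and DHX58 lie right of 0 in all pairs, TLR3 lies at -5.15 in the PEA pair and above 0 in the others, and STAT2 lies at -1.05 in the A2780 pair and above 0 in the others.

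Whether the pairs differed from each other was tested by contrasts of their log2FC in the same fit. The change of 6 of the 8 genes differed between the A2780 and PEA pairs, where 57.5% of all genes differed. It differed for 3 between the A2780 and PEO pairs (47.5% of all genes) and for 6 between the PEA and PEO pairs (58.7%). TLR3 had the largest such difference, -7.77 between the PEA and PEO pairs (SE 0.54, FDR = 4.13e-10, limma). Between the A2780 and PEO pairs, the TLR3 difference of -0.73 (95% interval -1.87 to 0.40, FDR = 0.282, limma) did not pass, but it was -3.07 after quantile normalization (FDR = 7.17e-05, limma) and -1.18 with 2 reads added (FDR = 0.0259), so that this call depends on the scaling and on the addition. The IRF3 difference between these pairs, -0.45 (FDR = 0.195, limma), was -0.66 and passed without A2780 replicate 2 (FDR = 0.0442, limma). For DHX58 no difference between pairs passed with all libraries. The intervals were -2.38 to 0.98 for A2780 less PEA, -1.25 to 2.11 for A2780 less PEO, and -0.55 to 2.81 for PEA less PEO, wide enough to hold differences as large as the changes themselves. The DHX58 difference of 1.13 between the PEA and PEO pairs (FDR = 0.236, limma) was 1.97 and passed without PEA1 replicate 1 (FDR = 0.0148, limma), was 0.64 without PEA1 replicate 3 and was -0.11 with 2 reads added. For A2780 less PEA it ranged from -1.54 without PEA1 replicate 1 to -0.21 without PEA1 replicate 3, and for A2780 less PEO its sign turned, from 0.43 to -0.73 with 2 reads added and -0.78 after quantile normalization, none of which passed. The IFIH1 change of the A2780 pair was not separated from that of the PEO pair (difference 0.27, 95% interval -0.67 to 1.21, FDR = 0.654, limma), although it was -1.09 and passed with 2 reads added (FDR = 0.0083, limma).

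Levels between genes were compared as CPM per kilobase of annotated exon. The length counts every annotated exon base of a gene, from 3794 for IRF3 to 14716 for TBK1, so the comparison depends on the annotation. JAK1 was the highest of the 8 in the serous lines, at 32.9 ± 2.1 CPM per kilobase in PEA1 and 23.0 ± 1.3 in PEO4 (SD, n = 3). In A2780 the highest was IRF3, at 12.8 ± 3.0, whereas JAK1 stood at 3.22 ± 0.04. IFIH1 ranged from 0.0165 CPM per kilobase in A2780, where 1 read was found, to 18.1 ± 1.1 in PEO4. There it stood above MAVS (6.84 ± 0.14), TBK1 (3.73 ± 0.16) and IRF3 (14.9 ± 2.0). Before division by length, the PEO4 means were 94.8 CPM for IFIH1, 80.5 for MAVS, 54.9 for TBK1 and 56.6 for IRF3. TLR3 was the lowest of the 8 there, at 2.10 ± 0.11, and DHX58, at 3.60 ± 0.34, was within its SD of TBK1. Over all 8 genes, 22 of the 40 steps between neighbours in the order of line means were separated at an FDR below 0.05 (limma). The share of such steps over all genes was not counted, so this number does not set the 8 genes apart.

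Around these genes, the other members of the pathway were described by lists, and the share of each list that passed (limma, FDR below 0.05) is set against the share of all genes. Over all genes, 22.2% rose and 17.7% fell in the A2780 pair, 32.5% and 29.4% in the PEA pair, and 19.6% and 21.9% in the PEO pair. Of 13 other nucleic acid sensors, 3 rose from A2780 to CP70 (23.1%, near the share of all genes) and 0 fell, also at an unadjusted p below 0.05. However, 5 of the 13 had at most 3 reads in every library of both lines, among them OAS2, 1 of the 3 that rose. In the PEA pair 6 rose (46.2%) and 2 fell (15.4%). In the PEO pair 8 rose (61.5%) and 2 fell (15.4%), with a median log2FC of 1.38 against -0.02 over all genes. OAS2 and OAS1, synthetases that make the RNase L activator on binding double-stranded RNA, rose by a log2FC of 5.41 (FDR = 1.43e-09) and 4.16 (FDR = 2.44e-08) in the PEO pair (limma). Named after its values were seen, DDX58 (RIG-I), the sensor of short triphosphate RNA and the other signalling helicase of the family, rose in the PEO pair with a log2FC of 2.06 (FDR = 2.77e-09, limma). Its log2FC was 0.16 in the A2780 pair and 0.13 in the PEA pair (FDR = 0.458 and 0.501, limma), where IFIH1 rose. OAS3 rose in the A2780 pair, with a log2FC of 2.55 (FDR = 9.53e-09, limma), while OAS2 had 0 reads in A2780 and 6 in CP70, too few for a fold. The DNA sensor gene MB21D1 (cGAS) rose in the PEA pair (log2FC 1.97, FDR = 1.57e-06, limma), as did OAS1 (1.53, FDR = 0.00135), and the inflammasome gene NLRP3 fell there (-1.15, FDR = 0.0159).

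Of 21 adaptors and kinases below the sensors, 8 rose (38.1%) and 2 fell (9.52%) in the A2780 pair, 9 rose (42.9%) and 6 fell (28.6%) in the PEA pair, and 6 rose (28.6%) and 5 fell (23.8%) in the PEO pair. The shares that fell in the PEA and PEO pairs were near those of all genes. Their medians were 0.12, 0.29 and 0.00 on the log2 scale. The count in the A2780 pair was 6 without A2780 replicate 3 and 6 without CP70 replicate 1, against 10. IKBKE, the kinase most closely related to TBK1, rose in the A2780 pair (log2FC 1.497, FDR = 1.80e-05, limma) and the PEA pair (1.70, FDR = 2.02e-06), where TBK1 stood at -0.10 and -0.53. TICAM1 (TRIF), the adaptor of TLR3, rose in the PEA pair with a log2FC of 2.13 (FDR = 1.38e-06, limma), where TLR3 itself fell. TBKBP1, a TBK1 binding protein, and TRAF2 fell there, with a log2FC of -1.81 (FDR = 0.000180) and -1.52 (FDR = 2.23e-06) (limma). TANK, a scaffold of TBK1, rose by 2.98 (FDR = 2.37e-10, limma) and IRAK1, a kinase of Toll-like receptor signalling, fell by 1.94 on the log2 scale (FDR = 1.09e-10, limma) in the PEO pair. IRAK4 rose in the A2780 pair (log2FC 1.13, FDR = 0.000492, limma). MYD88, 1 of the 2 that fell there, had 6 reads in A2780 and 3 in CP70, too few for a fold.

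Next came the receptors and transcription factors that act beside JAK1 and STAT2. Of 8 interferon receptor components, 2 rose (25%) and 1 fell (12.5%) in the A2780 and in the PEA pair, and 2 rose (25%) and 0 fell in the PEO pair, where 4 rose and 1 fell at an unadjusted p below 0.05 (limma). The shares that rose differed from those of all genes by less than 1 gene of the 8. IFNLR1, the specific chain of the interferon lambda receptor, rose in the A2780 pair (log2FC 1.45, FDR = 0.00268, limma). In the PEA pair its summed reads went from 6 to 77, a ratio of 7.70 (exact 95% interval 3.38 to 21.6). IFNGR2 rose in the PEO pair (log2FC 1.15, FDR = 1.82e-06, limma). Of 10 other STAT and IRF genes, 4 rose (40%) in each pair, against 22.2%, 32.5% and 19.6% of all genes in the A2780, PEA and PEO pairs, and 1 (10%), 2 (20%) and 1 (10%) fell, against 17.7%, 29.4% and 21.9%. IRF1 (log2FC 2.01, FDR = 8.94e-07) and IRF2 (1.51, FDR = 2.59e-05) rose in the A2780 pair (limma). IRF8, best known from myeloid and B cells, had 0 reads in PEA1 and 165 in PEA2, at least 33.0-fold higher against 3 reads over the line. PEA2 also held the PTPRC reads, and a link between them was not tested. IRF7, which amplifies interferon transcription, had 2 and 72 reads in that pair, a ratio of 21.6 (exact 95% interval 5.76 to 182), and its log2FC was 1.69 in the PEO pair (FDR = 0.00435, limma). STAT5A fell in the PEA pair (log2FC -1.45, FDR = 0.0243, limma).

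Of 25 inhibitors of sensing and signalling, 6 rose (24%) and 6 fell (24%) in the A2780 pair, where 22.2% and 17.7% of all genes did. In the PEA pair 6 rose (24%) and 8 fell (32%), against 32.5% and 29.4%, and in the PEO pair 8 rose (32%) and 5 fell (20%), against 19.6% and 21.9%. Most of these shares were near those of all genes. USP18, which shuts off signalling at the interferon receptor, rose in the A2780 pair (log2FC 3.33, FDR = 4.58e-09, limma). TRIM38, whose summed reads went from 5 to 76 there (ratio 10.4, exact 95% interval 4.28 to 33.0), also rose in the PEO pair (log2FC 2.19, FDR = 4.23e-05, limma) and fell in the PEA pair (-1.64, FDR = 0.000442). TREX1, a nuclease that removes cytosolic DNA, went from 43 to 5 summed reads in the PEA pair, 0.0697 times the level of PEA1 (exact 95% interval 0.0216 to 0.176), and fell in the A2780 pair (-1.06, FDR = 0.0410, limma). The A2780 libraries held only 5 to 10 reads of TREX1 and those of CP70 4 to 5. The phosphatase gene PTPN6 (2.53, FDR = 3.25e-07) and TNFAIP3 (2.00, FDR = 3.54e-07) rose in the PEA pair (limma). In the PEO pair the RNA helicase gene SKIV2L rose (1.19, FDR = 2.45e-06), and RNF125 (-1.47, FDR = 0.00680) and SOCS3 (-1.25, FDR = 6.90e-06) fell (limma).

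Downstream, 46 of 49 interferon-stimulated genes rose (93.9%, against 19.6% of all genes; limma) and 0 fell from PEO1 to PEO4, also at an unadjusted p below 0.05, with a median log2FC of 2.28 against -0.02 over all genes. In the A2780 pair 25 rose (51.0%, against 22.2%) and 9 fell (18.4%, near the 17.7% of all genes), with a median of 0.71 (1.32 with genes at the floor at their bounds, which leaves out 9 genes), and in the PEA pair 23 rose (46.9%, against 32.5%) and 7 fell (14.3%, against 29.4%), with a median of 0.38. In A2780, 21 of the 49 had at most 3 reads in every library. IFI44L went from 2 to 346 reads in the PEO pair, a ratio of 259 (exact 95% interval 71.1 to 2145), and IFITM2 from 2 to 236, a ratio of 177 (48.3 to 1466). NMI had 0 reads in A2780 and 339 in CP70, at least 77.5-fold higher, and LGALS3BP rose there too (log2FC 5.57, FDR = 4.21e-15, limma), whereas IFITM1 went from 170 to 2 reads and BST2 fell (log2FC -4.48, FDR = 1.54e-08, limma). In the PEA pair LAMP3 (at least 116-fold) and MX2 (at least 71.6-fold) rose from 0 reads, and BST2 (-2.89, FDR = 3.63e-06) and GBP1 (-1.95, FDR = 2.70e-07) fell (limma). The IFITM genes are related in sequence to differing degrees, so the division of reads among them may be uncertain. None of 21 interferon genes looked for had a row in the table used here. The ISRE letters occurred in 27 of the 41 interferon-stimulated genes with a promoter window and the GAS letters in 9 of the 41.

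**Figure D4:**
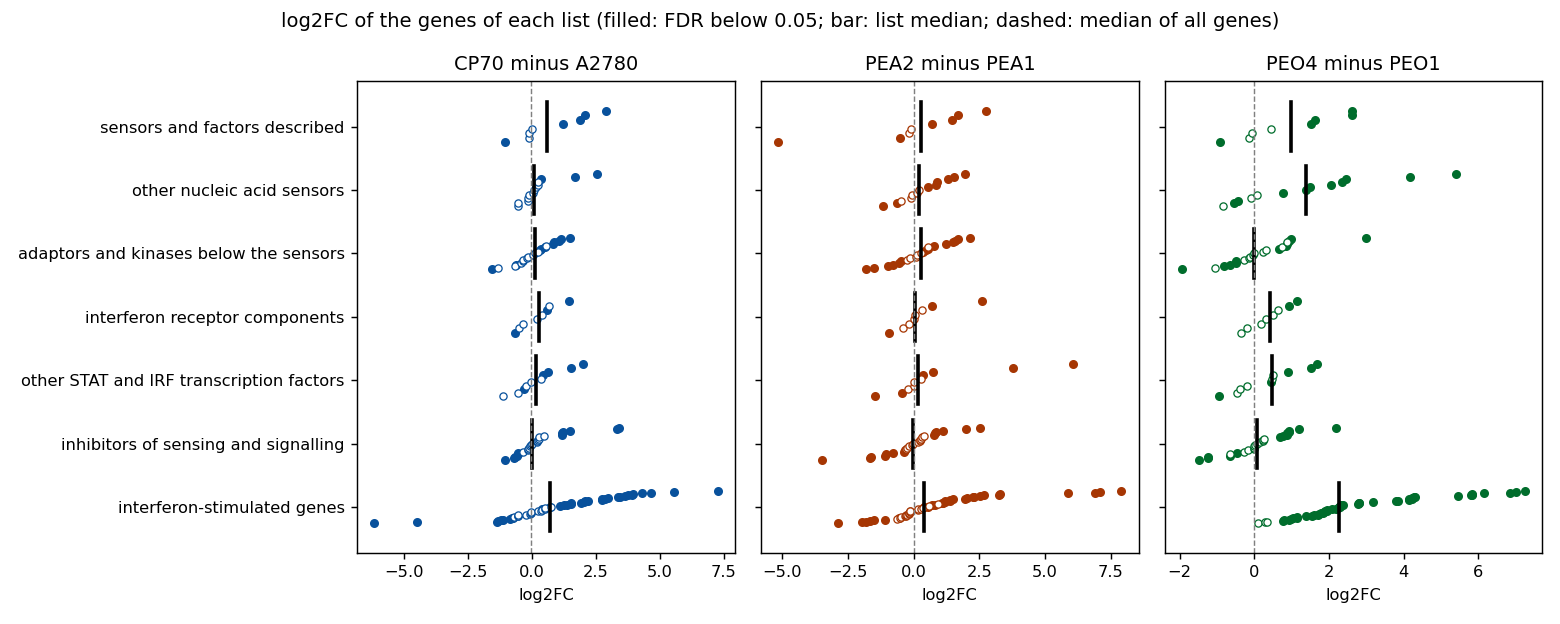
log2FC on the x axis of every gene in the 7 lists, in 3 panels for the A2780, PEA and PEO pairs; points are genes, filled at an FDR below 0.05, thick bars are list medians, and dashed lines the median of all genes. Interferon-stimulated genes lie to the right in the PEO panel, with a median of 2.28, and points of genes with few reads in 1 line depend on the 0.5 reads added.

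For each gene whose line means spanned more than 1 log2 unit, the 3 genes of most similar profile were found by Pearson's r over the 18 libraries among 11993 genes. These libraries are 6 lines in triplicate, so each r rests mainly on 6 levels and is a description. The profile of IFIH1 was closest to EFNA5 (r = 0.989), PARP10 (0.988) and TRAM1 (0.979), and that of STAT2 to GRN (0.984), CD109 (0.967) and OAS1 (0.964). DHX58 was closest to CHMP4C (0.962), PDE4B (0.951) and DTX4 (0.947), and TLR3 to PRCP (0.953), ICK (0.953) and SLC30A7 (0.939). MAVS was closest to IL1R2 (0.9504), DSCAML1 (0.947) and CHML (0.934), IRF3 to SLC1A5 (0.963), OPLAH (0.942) and TMEM30B (0.934), and JAK1 to SPATS2L, TAGLN2 and EFCAB14 (each 0.990). Among the 8 genes themselves, IFIH1 followed JAK1 (r = 0.912), STAT2 (0.846) and DHX58 (0.809) over the same libraries, and TLR3 and IRF3 had the most negative r of any pair of them (-0.505).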

How the data were processed

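RNA-seq of 18 libraries (6 lines, 3 replicates each) was analysed. The labels and the study's methods state strand-specific libraries of rRNA-depleted RNA, and the submitters' processing notes name Bowtie2, featureCounts, limma and hg19, without versions. The authors deposited normalized log2 values for 12853 genes, with 0.5 reads added. Values were used as deposited. Reads were recovered from them (within 0.01 of a whole read) to give depth, low-read ratios with exact binomial intervals, and bounds against 3 reads over a line. A single limma 3.58.1 fit (R 4.3.3) of all libraries, with a mean per line and a trend of variance with level, gave two-sided tests adjusted by the Benjamini-Hochberg method over all genes. The calculation was tested on simulated data.

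The genes and lists were chosen with earlier results of these data known. Named genes are all genes of the set in the table, of each list the 2 highest and 2 lowest log2FC per pair at an FDR below 0.05 and |log2FC| above 1, the 3 closest profiles, and markers. Alternatives applied to lists and to differences between pairs were chosen after seeing the data. Positions and exon lengths came from a GRCh37 annotation. Every column of sample values was used. ATAC-seq was not analysed here. A gene that this rule names is not reported here by itself, while counts over its list include it.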

Additional observations from a re-analysis of the deposited data

Results flagged for a closer look

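The results named here are those whose change differed between pairs by a test of the difference itself (limma contrast of the log2FC of each pair, FDR below 0.05 over 12853 genes). Where 57.5%, 47.5% and 58.7% of all genes differed in the same contrasts, such a difference is common in these lines.

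Between the A2780 and the PEA pair (A2780 less PEA), the log2FC differed by 7.04 for TLR3, 1.42 for IFIH1 (FDR = 0.0115, limma), 1.33 for JAK1, 0.43 for TBK1 (FDR = 0.0477, limma), -1.68 for IRF3 and -1.76 for STAT2. The IFIH1 difference rested on the 1 read in A2780: it was 0.09 with 2 reads added to each count and 0.90 after quantile normalization, and passed in neither (FDR = 0.831 and 0.166, limma). The TBK1 difference was lost with both pairs fitted apart from the third, with the replicate number as a block, without the trend and with voom weights (FDR from 0.0533 to 0.0826, limma). It was also lost without A2780 replicate 1 or 3, CP70 replicate 2 or 3, PEA1 replicate 2 or 3, or PEA2 replicate 1 or 2, with an FDR of up to 0.132 (limma) in the case of CP70 replicate 3.

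Between the A2780 and the PEO pair (A2780 less PEO), it differed by 1.36 for JAK1, 0.83 for MAVS and -2.57 for STAT2, each in the same direction and past the threshold under every alternative run. Between the PEA and the PEO pair (PEA less PEO), it differed by -7.77 for TLR3, 1.23 for IRF3, 0.76 for MAVS, -0.82 for STAT2, -1.14 for IFIH1 (FDR = 0.0357, limma) and -0.47 for TBK1 (FDR = 0.0312, limma). The IFIH1 difference was lost without PEO1 replicate 1 or 2, any 1 of the PEO4 replicates, PEA1 replicate 1 or 2, or PEA2 replicate 1 or 3, at differences from -1.19 to -1.04 and an FDR from 0.0526 to 0.0762 (limma). The TBK1 difference was lost without PEO1 replicate 3, PEO4 replicate 1 or 2, PEA1 replicate 3, or PEA2 replicate 1 or 2, with an FDR of up to 0.102 (limma) in the case of PEO1 replicate 3, and it was also lost, at the threshold itself, with both pairs fitted apart from the third. In every other difference given, the direction and the call held under each alternative.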

How the results depend on the processing

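Of 312 values of a log2FC within a pair under an alternative, 299 kept their side of the threshold, 7 lost the call and 6 gained it. Of 456 differences between pairs, 420 kept their side, 30 lost the call, 4 gained it (TLR3 and IRF3 between the A2780 and PEO pairs and DHX58 between the PEA and PEO pairs) and 2 turned direction with a call. In 4 of the 299 and 11 of the 420 the sign also turned, with no call on either side. The alternatives were each pair alone, a mean log2 value above 0, quantile normalization, the replicate block, no trend, voom weights, 2 reads added, and each library left out. With |log2FC| above 2, 2 members changed in each pair, against 5, 6 and 5. Leaving out 1 library gave 5 for A2780 and CP70, 6 for the PEA lines and 4 to 6 for the PEO lines, and 5 to 6, 3 to 4 and 4 to 6 members whose change differed between pairs, for A2780 against PEA, A2780 against PEO and PEA against PEO. The differences that turned with a call had not passed in the first place: IFIH1 between the A2780 and PEO pairs was -1.09 (FDR = 0.0083, limma) with 2 reads added, against 0.27, and JAK1 between the PEA and PEO pairs was -0.28 (FDR = 0.0368, limma) after quantile normalization, against 0.03. Among the lists, receptor components changed in the A2780 pair numbered 5 with the pair alone and 1 after quantile normalization, against 3, and in the PEO pair 5 with the pair alone and 4 with voom weights, against 2. Adaptors and kinases changed in the A2780 pair ranged from 6 to 11 with 1 library left out. The cause of these shifts was not tested.

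Deviations from the line mean correlated between same-numbered libraries at r from -0.147 to 0.165 over 8062 genes, so the numbers did not pair them, and not every library correlated best with its own number. With the replicate block, 5, 6 and 5 genes changed in the A2780, PEA and PEO pairs, and 5, 3 and 6 differed between pairs, the TBK1 difference between the A2780 and PEA pairs being lost. Depth limits IFIH1, DHX58 and TLR3 most, since 1 read was worth up to 0.726 CPM.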
